A study of Mus musculus with 20 samples.

Results

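The mitogen-activated protein kinase (MAPK) cascade and the dual specificity phosphatases (DUSP) were measured by their mRNA in mouse kidney after ischemia/reperfusion injury (IRI). Members were all non-control probes whose gene name on the array was Map4k, Map3k, Map2k, Mapk or Mapkapk followed by a number, or Dusp followed by a number. They came to 66 of the 27827 gene names on the array, 43 kinases and 23 phosphatases, covered by 128 probes. Of these, 63 were tested in every comparison. Dusp13, Dusp21 and Dusp27 were not, since they were not well above background on enough arrays, and Dusp13 was above it on 1 IRI array alone. Dusp5 was not analysed here.

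MAPK signaling passes through tiers of kinases, in which MAP4K proteins act on MAP3K, MAP3K on MAP2K, and MAP2K on the MAPKs themselves, the ERK, JNK and p38 enzymes. A MAPK is switched on when threonine and tyrosine in its activation loop are both phosphorylated, and the DUSP proteins that dock to it, known as MAPK phosphatases, remove both phosphates. Many of these phosphatase genes are themselves switched on by MAPK signaling, so that they close a negative feedback loop. In the kidney, the stress branches of JNK and p38 are known to respond to ischemia and oxidants in tubular cells. The arrays measured mRNA and hold no information on phosphorylation.

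The samples were whole-kidney RNA of male C57BL/6 mice aged 8 to 12 weeks, on 20 arrays in 5 groups of 4. Control mice had neither ischemia nor hemin, and whether they had a sham operation was not stated. IRI mice had both renal pedicles clamped for 45 min, followed by 6 h of reperfusion. IPC+IRI mice had in addition been preconditioned by 15 min of clamping 7 days earlier. IRI+Hemin mice had received 25 mg/kg of hemin, an inducer of heme oxygenase, by intraperitoneal injection 24 h before the same ischemia, and Hemin mice the same injection without ischemia. Each group was on a slide of its own, so that slide and group cannot be told apart. Control and IRI were scanned on the first day, IRI+Hemin on the second, and IPC+IRI and Hemin on the third. Nothing stated that each array was a separate animal, so p-values measure only the spread between these samples.

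Between 57.4% and 67.4% of the genes, and between 61 and 63 of the members, were well above background on an array, and no member probe was saturated. Arrays of a group correlated at r between 0.979 and 0.992. All 4 proximal tubule markers were above background on every array, with a summed log2 level of 8.13 to 8.35 in Control, 7.75 to 8.15 in IRI, 7.41 to 7.75 in IPC+IRI, 7.34 to 7.62 in IRI+Hemin and 7.88 to 8.08 in Hemin. The 5 neutrophil and monocyte markers summed to 1.18 to 2.06 in Control, 2.06 to 3.42 in IRI, 3.40 to 5.22 in IPC+IRI, 2.63 to 3.88 in IRI+Hemin and 1.56 to 2.31 in Hemin, and 1 of them was above background on no array of Control or Hemin. In whole tissue, fewer cells of a type and less RNA per cell cannot be told apart. Expression below is the log2 of a gene's processed signal over the array's 75th percentile, which is therefore 0. A difference between group means is on that log2 scale and is given with its standard error after the ± sign. Higher, lower, rose and fell are used of members with a Benjamini-Hochberg adjusted p below 0.05 in a limma fit over all genes tested.

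After IRI, both kinases and phosphatases included members that were higher and members that were lower than in Control. Among the kinases, 17 of 43 (39.5%) rose and 6 (14%) fell, against 17.1% and 33.9% of all genes tested. Among the phosphatases, 9 of 20 (45%) rose and 5 (25%) fell. At 2-fold or more, 8 kinases and 6 phosphatases rose, where 5.97% of all genes did, while 1 kinase and 5 phosphatases fell, where 14.3% did. The median difference was 0.20 over the kinases, -0.03 over the phosphatases and -0.17 over all genes. Of all genes called, 33.5% were higher, a share that was 44.2% after quantile normalization. With normexp background correction, which acts most on dim probes, that share was 56.2%, and limma called 0 members lower, while at an unadjusted p below 0.05 1 kinase and 0 phosphatases were lower.

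**Figure D1:**
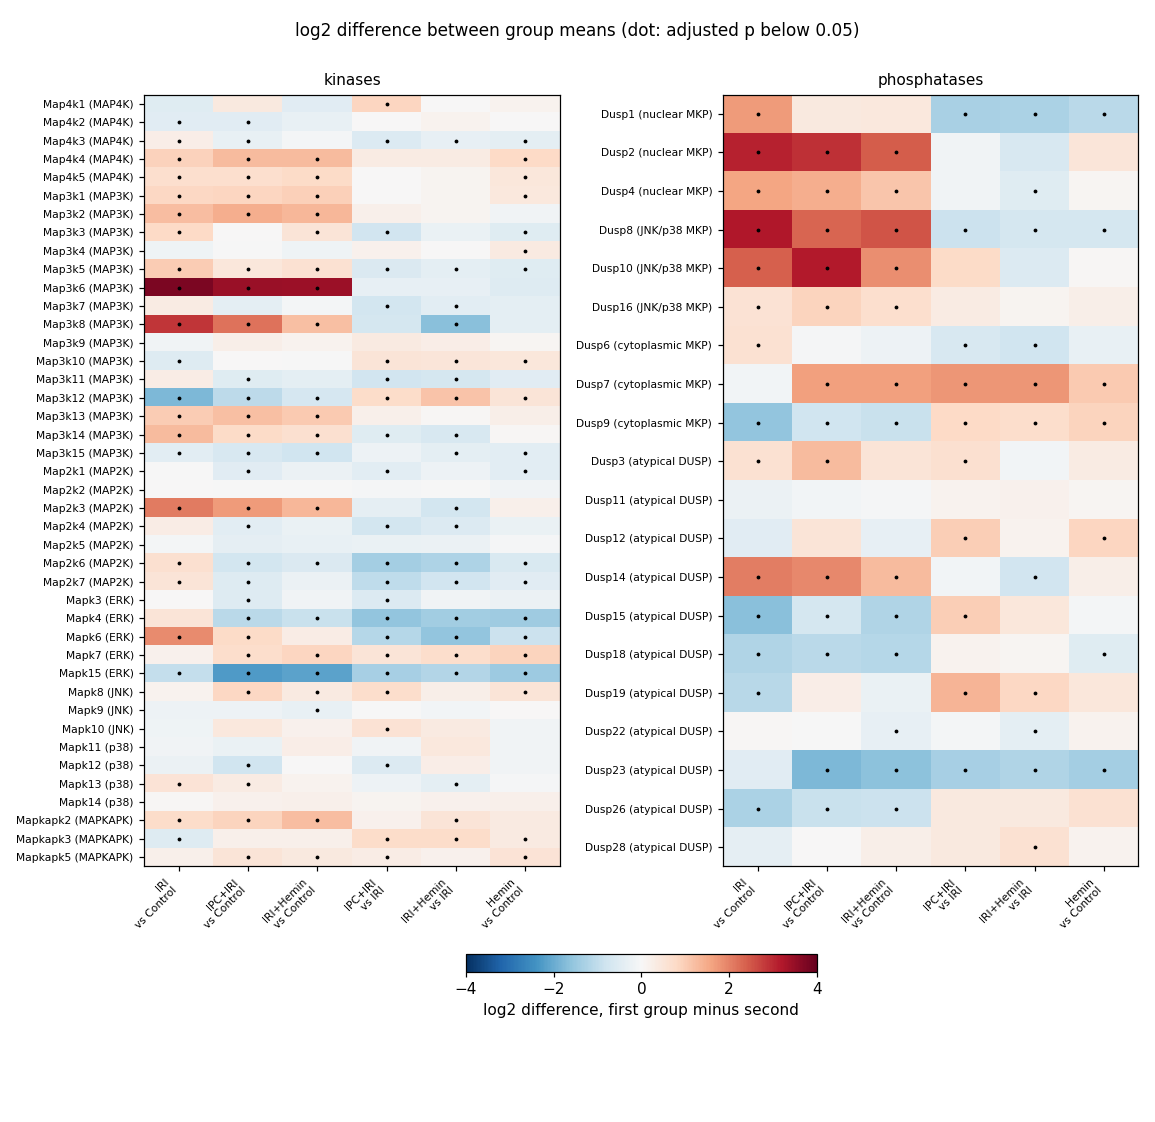
Log2 difference between group means for tested members (rows, kinases and phosphatases grouped by tier) in 6 comparisons (columns). Color runs from -4 to 4 on the log2 scale, and a dot marks an adjusted p below 0.05. Map3k6, at 3.78 in IRI vs Control, Dusp8, at 3.19, and Dusp2, at 3.07, have the largest differences of that comparison.

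The tier at the top of the cascade holds the MAP4K family, kinases of the STE20 type that act on MAP3K proteins. In IRI vs Control, 3 of its 5 members (60%) rose and 1 (20%) fell, against 17.1% and 33.9% of all genes. Map4k4, which acts toward JNK, measured -0.67, 0.18, -0.56 and -0.47 in Control, 0.27, 0.39, 0.43 and 1.07 in IRI, 0.64, 0.70, 0.95 and 1.24 in IPC+IRI, 0.83, 1.12, 0.93 and 0.63 in IRI+Hemin, and 0.35, 0.52, 0.43 and 0.37 in Hemin. All Control arrays lay below all arrays of the injured groups and also below those of Hemin. The difference from Control was 0.92 ± 0.19 (adjusted p = 0.000712) in IRI, 1.26 ± 0.19 (adjusted p = 3.61e-05) in IPC+IRI and 1.26 ± 0.19 (adjusted p = 3.32e-05) in IRI+Hemin, and 0.80 ± 0.19 (adjusted p = 0.00432) in Hemin without injury, where the mean of log2 over its probes gave 0.40, not called. Map4k5 rose by 0.66 in IRI vs Control and Map4k3 by 0.25, while Map4k2, at -0.45, fell. Map4k1, a kinase of blood cells, had -0.48 (adjusted p = 0.107).

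In the MAP3K tier, 8 of 15 members (53.3%) rose after IRI and 3 (20%) fell, against 17.1% and 33.9% of all genes. Map3k6, also known as ASK2, is the partner of the stress kinase ASK1 and acts toward JNK and p38. It measured -0.50, -0.94, -0.12 and -1.34 in Control, 3.14, 3.50, 3.08 and 2.48 in IRI, 2.38, 2.80, 2.84 and 2.89 in IPC+IRI, 2.82, 2.96, 2.81 and 2.24 in IRI+Hemin, and -1.54, -1.68, -1.04 and -0.70 in Hemin. Every array of the 3 injured groups was above every array of Control and Hemin, with no array between -0.12 and 2.24. The differences from Control were 3.78 ± 0.27 (adjusted p = 1.05e-08) in IRI, 3.45 ± 0.27 (adjusted p = 3.57e-08) in IPC+IRI and 3.43 ± 0.27 (adjusted p = 4.05e-08) in IRI+Hemin. Map3k5, which encodes ASK1 itself, showed a smaller step. It measured 1.09, 1.01, 1.18 and 1.34 in Control, 2.25, 2.22, 2.27 and 1.98 in IRI, 1.61, 1.49, 1.29 and 2.06 in IPC+IRI, 1.94, 1.83, 1.97 and 1.38 in IRI+Hemin, and 0.62, 0.93, 0.53 and 0.57 in Hemin. All IRI arrays were above all Control arrays, with a difference of 1.02 ± 0.16 (adjusted p = 4.27e-05). The IPC+IRI arrays overlapped Control, and their difference of 0.46 ± 0.16 (adjusted p = 0.0204) was 0.31 and no longer called without IPC+IRI replicate 4. It was not called either without Control replicate 2, at 0.41, with normexp, at 0.41, with quantile normalization, at 0.36, or with the percentile over probes above background on all arrays, at 0.35, or in a fit of only the groups compared, at 0.46.

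Map3k8, or TPL2, which drives the ERK branch downstream of inflammatory receptors and is abundant in leukocytes, measured -3.60, -4.22, -4.00 and -3.81 in Control, -1.17, -0.58, -1.18 and -1.29 in IRI, -2.99, -1.12, -1.32 and -1.54 in IPC+IRI, -2.44, -2.46, -2.41 and -3.55 in IRI+Hemin, and -4.34, -4.48, -4.02 and -4.35 in Hemin. It was dim, and above background on 3 of 4 Control arrays. The IRI arrays and 3 of the 4 IPC+IRI arrays lay near -1, and the IRI+Hemin arrays between these and the uninjured groups. The differences from Control were 2.85 ± 0.33 (adjusted p = 2.06e-06) in IRI, 2.17 ± 0.33 (adjusted p = 3.2e-05) in IPC+IRI and 1.19 ± 0.33 (adjusted p = 0.00499) in IRI+Hemin, the last of which was 0.16 and not called with normexp. Of the neutrophil and monocyte markers, 2 of 3 tested were higher than Control in IRI, 5 of 5 in IPC+IRI and 3 of 5 in IRI+Hemin. Of 4 markers shared by leukocytes, 1 was called higher than Control, in IPC+IRI alone among the injured groups, and their summed log2 level of 0.47 to 1.51 in Control overlapped that of 1.17 to 1.62 in IRI, 0.95 to 2.90 in IPC+IRI and 0.78 to 1.65 in IRI+Hemin. The part of either list in the values of Map3k8 was not tested.

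Map3k14, the NF-kappaB inducing kinase, measured 0.81, 0.35, 0.40 and 0.25 in Control, 1.60, 1.79, 1.72 and 1.74 in IRI, 1.52, 1.02, 1.46 and 0.84 in IPC+IRI, 1.06, 1.25, 1.33 and 0.68 in IRI+Hemin, and 0.58, 0.33, 0.65 and 0.41 in Hemin. The difference of IRI from Control was 1.26 ± 0.17 (adjusted p = 9.11e-06), with no overlap of arrays. Map3k2, or MEKK2, which acts toward ERK5 and JNK, measured -1.21, -0.68, -1.04 and -1.30 in Control, -0.25, 0.71, 0.21 and 0.05 in IRI, 0.73, 0.15, 0.43 and 0.24 in IPC+IRI, 0.30, 0.08, 0.06 and 0.69 in IRI+Hemin, and -1.08, -1.09, -1.32 and -1.24 in Hemin. It stood above Control on every array of the 3 injured groups, by 1.24 ± 0.19 (adjusted p = 4.84e-05) in IRI, 1.44 ± 0.19 (adjusted p = 9.87e-06) in IPC+IRI and 1.34 ± 0.19 (adjusted p = 1.81e-05) in IRI+Hemin. Map3k13, or LZK, a JNK kinase kinase, measured -3.44, -3.31, -3.54 and -3.62 in Control, -2.86, -2.45, -2.28 and -2.31 in IRI, -2.35, -2.23, -2.06 and -2.43 in IPC+IRI, -2.19, -2.69, -2.47 and -2.35 in IRI+Hemin, and -3.15, -3.24, -3.35 and -3.31 in Hemin. Its arrays were likewise separate, with differences from Control of 1.00 ± 0.13 (adjusted p = 9.51e-06), 1.21 ± 0.13 (adjusted p = 1.38e-06) and 1.05 ± 0.13 (adjusted p = 4.79e-06) in the same order. With normexp the latter 2 were 0.27 and 0.10 and not called. Map3k1 and Map3k3 also rose after IRI, by 0.84 and 0.80.

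Map3k12, or DLK, was the kinase with the largest fall in IRI vs Control. DLK is a JNK kinase kinase best known from neurons and is the nearest relative of LZK, whose mRNA moved in the other direction. Map3k12 measured -2.18, -2.63, -2.59 and -2.75 in Control, -4.28, -3.94, -4.36 and -4.75 in IRI, -3.39, -4.06, -3.45 and -3.48 in IPC+IRI, -3.35, -3.14, -3.37 and -2.92 in IRI+Hemin, and -2.02, -2.16, -1.97 and -1.91 in Hemin. The IRI arrays had the lowest values and overlapped no group other than IPC+IRI. Its difference from Control was -1.80 ± 0.18 (adjusted p = 3.89e-07) in IRI, -1.06 ± 0.18 (adjusted p = 8.16e-05) in IPC+IRI and -0.66 ± 0.18 (adjusted p = 0.0042) in IRI+Hemin. With normexp these were -0.24, -0.49 and -0.42, and none was called. The IPC+IRI call was also lost with the deposited matrix, at -0.89, and the IRI+Hemin call with quantile normalization, at -0.33, and without normalization, at -0.18. Map3k10, at -0.51, and Map3k15, at -0.42, also fell in IRI vs Control.

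**Figure D2:**
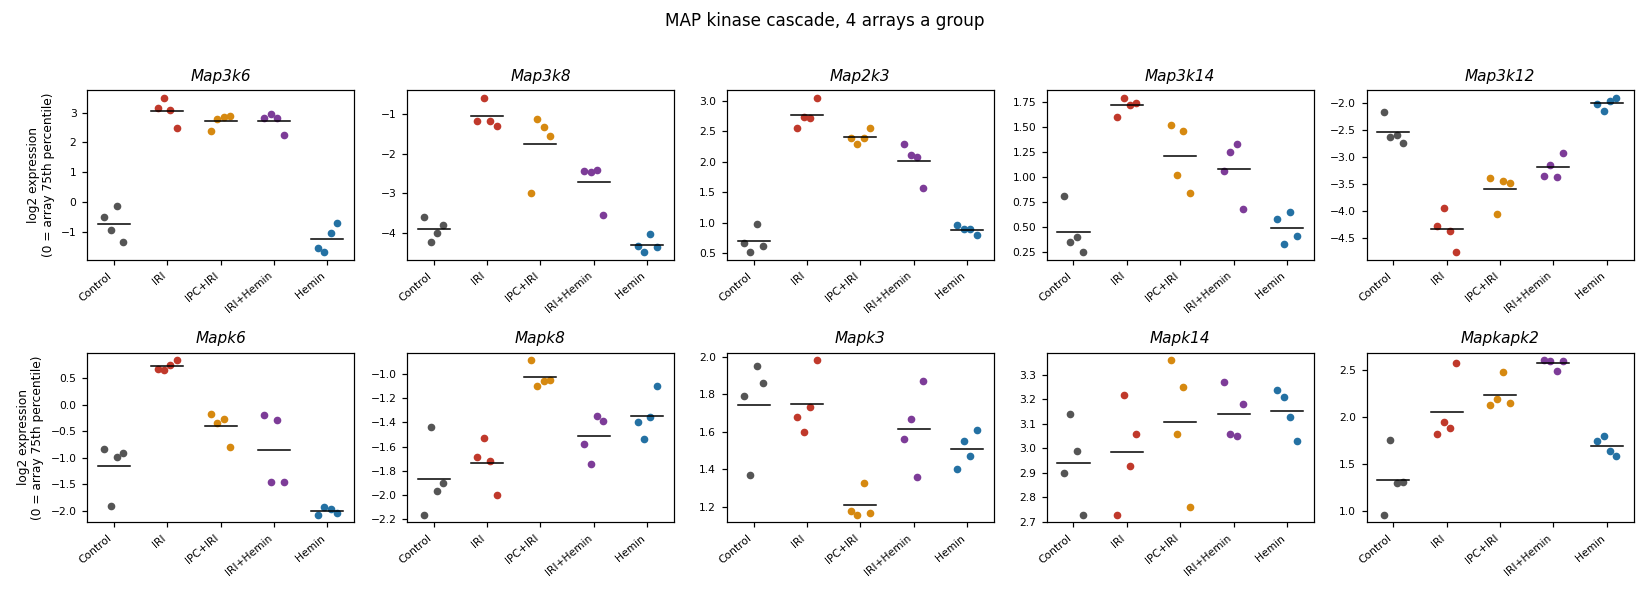
Log2 expression of 10 kinase genes on each of the 20 arrays, in 5 groups of 4, with 0 at the array's 75th percentile. Points are arrays and black bars group means, and each panel has its own axis. Map3k6 lies at 2.24 or more on all injured arrays and at -0.12 or less on all others, while in Mapk14 every group overlaps every other.

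Of the 7 MAP2K genes, 3 (42.9%) rose after IRI, against 17.1% of all genes, and 4 were not called. Map2k3, whose product MKK3 activates p38, measured 0.67, 0.52, 0.98 and 0.61 in Control, 2.55, 2.73, 2.72 and 3.05 in IRI, 2.39, 2.29, 2.39 and 2.56 in IPC+IRI, 2.29, 2.11, 2.08 and 1.57 in IRI+Hemin, and 0.96, 0.89, 0.90 and 0.79 in Hemin. The lowest injured array, at 1.57, was above the highest uninjured one, at 0.98. The differences from Control were 2.07 ± 0.14 (adjusted p = 7.32e-09) in IRI, 1.71 ± 0.14 (adjusted p = 7.8e-08) in IPC+IRI and 1.32 ± 0.14 (adjusted p = 1.06e-06) in IRI+Hemin. Map2k6, for MKK6, the other p38 activator, measured 0.01, -1.10, -0.22 and -0.60 in Control, 0.27, 0.47, 0.10 and -0.19 in IRI, -0.99, -1.35, -1.07 and -1.41 in IPC+IRI, -1.25, -1.18, -1.25 and -0.56 in IRI+Hemin, and -1.06, -1.05, -1.16 and -1.14 in Hemin. Its difference of 0.64 ± 0.21 (adjusted p = 0.0154) in IRI overlapped Control, was 0.44 without Control replicate 2, 0.54 without IRI replicate 2, 0.46 with normexp, 0.06 with the mean of log2 over probes and 0.64 in a fit of only the groups compared, none of them called, and its 3 probes ranged from -1.16 to 0.69. Map2k7, whose product MKK7 activates JNK, measured -1.67, -2.06, -1.31 and -1.31 in Control, -1.06, -1.22, -1.08 and -0.90 in IRI, -2.32, -2.11, -2.16 and -1.80 in IPC+IRI, -1.78, -1.82, -1.82 and -1.86 in IRI+Hemin, and -2.05, -1.91, -2.04 and -2.09 in Hemin. The IRI arrays were all above those of Control, by 0.52 ± 0.14 (adjusted p = 0.00556), but the mean of log2 over its probes gave 0.30, and the values without normalization 0.64, neither called. Map2k1 and Map2k2, which encode the ERK activators MEK1 and MEK2, had -0.03 (adjusted p = 0.839) and 0.00 (adjusted p = 0.979).

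At the level of the MAPKs, the mRNAs of ERK1, p38 alpha, JNK1 and JNK2 were not called in IRI vs Control. Mapk3, which encodes ERK1, measured 1.79, 1.37, 1.95 and 1.86 in Control, 1.68, 1.60, 1.73 and 1.98 in IRI, 1.18, 1.16, 1.33 and 1.17 in IPC+IRI, 1.56, 1.67, 1.36 and 1.87 in IRI+Hemin, and 1.40, 1.55, 1.47 and 1.61 in Hemin. Mapk14, which encodes p38 alpha, measured 2.90, 3.14, 2.99 and 2.73 in Control, 2.73, 3.22, 2.93 and 3.06 in IRI, 3.36, 3.06, 3.25 and 2.76 in IPC+IRI, 3.27, 3.06, 3.05 and 3.18 in IRI+Hemin, and 3.24, 3.21, 3.13 and 3.03 in Hemin. In Mapk14 every group overlapped every other. In IRI vs Control the difference was 0.00 ± 0.13 (adjusted p = 0.986) for Mapk3 and 0.04 ± 0.13 (adjusted p = 0.803) for Mapk14.

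Mapk8, which encodes JNK1, measured -2.16, -1.44, -1.97 and -1.90 in Control, -1.69, -1.53, -1.72 and -2.00 in IRI, -0.89, -1.10, -1.06 and -1.05 in IPC+IRI, -1.58, -1.74, -1.35 and -1.39 in IRI+Hemin, and -1.40, -1.54, -1.36 and -1.10 in Hemin. Its 5 probes disagreed, and those above background ranged from -0.33 to 0.86 in IRI vs Control. Mapk9, which encodes JNK2, measured -0.96, -1.06, -0.80 and -0.73 in Control, -1.20, -1.25, -1.04 and -0.82 in IRI, -0.98, -1.09, -1.09 and -1.18 in IPC+IRI, -1.12, -1.34, -1.21 and -1.11 in IRI+Hemin, and -0.88, -0.78, -0.79 and -0.96 in Hemin. In IRI vs Control the difference was 0.13 ± 0.15 (adjusted p = 0.468) for Mapk8 and -0.19 ± 0.11 (adjusted p = 0.14) for Mapk9, and limma called 0 of the 3 JNK genes, also 0 at an unadjusted p below 0.05. Among the 4 p38 genes, Mapk13, for p38 delta, rose by 0.54.

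Among the 6 genes of the ERK family 1 (16.7%) rose and 1 (16.7%) fell, against 17.1% and 33.9% of all genes. Mapk6 encodes ERK3, an atypical MAPK with a short-lived protein and no tyrosine in its activation loop. It measured -0.83, -1.90, -0.99 and -0.90 in Control, 0.67, 0.66, 0.76 and 0.84 in IRI, -0.18, -0.34, -0.27 and -0.80 in IPC+IRI, -0.20, -1.45, -0.28 and -1.45 in IRI+Hemin, and -2.07, -1.92, -1.96 and -2.05 in Hemin. The IRI arrays were above all others, and the difference from Control was 1.89 ± 0.27 (adjusted p = 1.97e-05). Mapk15, for ERK7, an atypical MAPK tied to cilia, measured -2.51, -2.75, -2.42 and -2.46 in Control, -3.53, -3.44, -3.52 and -3.48 in IRI, -4.65, -5.35, -4.48 and -4.76 in IPC+IRI, -4.36, -4.64, -4.90 and -4.76 in IRI+Hemin, and -4.30, -3.75, -4.26 and -3.68 in Hemin. It fell in IRI, at -0.96 ± 0.18 (adjusted p = 0.000225), with no overlap, but the value with normexp was -0.09 and not called. Mapkapk2, whose product MK2 is the p38 substrate that stabilizes inflammatory mRNAs, measured 0.96, 1.75, 1.30 and 1.31 in Control, 1.82, 1.94, 1.88 and 2.57 in IRI, 2.12, 2.19, 2.48 and 2.15 in IPC+IRI, 2.60, 2.59, 2.49 and 2.59 in IRI+Hemin, and 1.74, 1.80, 1.64 and 1.58 in Hemin. It was higher than Control by 0.72 ± 0.16 (adjusted p = 0.00128) in IRI, 0.90 ± 0.16 (adjusted p = 0.000164) in IPC+IRI and 1.24 ± 0.16 (adjusted p = 6.94e-06) in IRI+Hemin. Mapkapk3, its close relative, fell in IRI vs Control, at -0.53.

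Among the phosphatases, all 3 nuclear MAPK phosphatases measured (Dusp1, Dusp2 and Dusp4) were called higher after IRI. So were Dusp8 and Dusp16, which favor JNK and p38. Dusp10, which favors them too, was also called. It was the 1 member that was tested against Control only because it was above background in the other group. The filter thus favored a higher call. Without Dusp10, 8 of 19 phosphatases (42.1%) rose in IRI vs Control, 7 (36.8%) in IPC+IRI vs Control and 6 (31.6%) in IRI+Hemin vs Control. Dusp10 remains in the counts of phosphatases that rose at 2-fold or more against Control in the injured groups. It also remains among the members higher in IRI vs Control that are set against IPC+IRI vs Hemin below. Of the 11 atypical DUSP genes tested, which lack the kinase-docking domain, 2 (18.2%) rose and 4 (36.4%) fell, near the 17.1% and 33.9% of all genes. Promoter windows of 250 bases before to 50 after the start of a transcript were read from RefSeq sequence on GRCm38.p6 for 52 members, and were searched on both strands for the cyclic AMP response element, TGACGTCA. The element was present in Dusp1, Dusp8 and Mapk10, and in 549 of 27025 genes (2.03%) with such a window. Those 3 stretches, 140 bases from -160 to -21 and all on the minus strand, are shown since the first 2 genes were among the phosphatases that rose, with the element in capitals. They lie at chr17:26508493-26508632 for Dusp1, chr7:142095305-142095444 for Dusp8 and chr5:103211355-103211494 for Mapk10.
Dusp1: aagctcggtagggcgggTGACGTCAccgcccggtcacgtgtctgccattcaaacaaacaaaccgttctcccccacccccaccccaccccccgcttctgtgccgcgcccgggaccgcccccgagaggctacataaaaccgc
Dusp8: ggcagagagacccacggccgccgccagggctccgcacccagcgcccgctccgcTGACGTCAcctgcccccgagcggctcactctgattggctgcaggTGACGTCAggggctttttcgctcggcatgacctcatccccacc
Mapk10: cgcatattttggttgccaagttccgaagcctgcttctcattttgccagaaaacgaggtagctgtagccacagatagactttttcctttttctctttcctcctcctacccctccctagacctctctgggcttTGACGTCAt
Dusp8 holds the element at 2 places, and Mapk10, for JNK3, was not called against Control in any injured group. A match of letters is a description and not a binding site. The AP-1 motif TGANTCA was in the windows of Map2k6, Map2k7, Map3k10 and Dusp13, and in 7.81% of all windows. The E box CACGTG was in those of Dusp1, Dusp2, Map3k12, Map4k1, Mapk12 and Mapkapk3, and in 7.15% of all. A kappaB site was found in Map3k7, Map4k1, Map4k2, Mapk7 and Dusp22, and in 8.46% of all, and a CArG box in no member and 1.63% of all. Among the members without a window were Dusp4, Dusp9, Dusp15, Dusp19, Dusp21, Dusp26, Map3k2, Map3k8, Map3k15, Map4k4, Mapk3, Mapk4 and Mapk15.

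Dusp8, a cytoplasmic phosphatase of JNK, measured -2.70, -2.08, -1.95 and -2.52 in Control, 0.25, 1.21, 0.99 and 1.06 in IRI, 0.33, 0.02, 0.20 and -0.49 in IPC+IRI, 0.41, 0.02, 0.02 and 0.31 in IRI+Hemin, and -3.13, -3.04, -2.80 and -3.13 in Hemin. The lowest injured array, at -0.49, was above the highest uninjured one, at -1.95. The differences from Control were 3.19 ± 0.21 (adjusted p = 4.85e-09) in IRI, 2.33 ± 0.21 (adjusted p = 2.14e-07) in IPC+IRI and 2.50 ± 0.21 (adjusted p = 9.03e-08) in IRI+Hemin. Dusp2, an inducible nuclear phosphatase first known from activated lymphocytes, measured -2.76, -1.86, -1.60 and -2.19 in Control, 0.54, 1.88, 0.89 and 0.58 in IRI, 0.23, 0.91, 1.67 and 0.52 in IPC+IRI, 0.43, 0.36, 0.38 and 0.14 in IRI+Hemin, and -2.01, -1.58, -1.66 and -1.28 in Hemin. Again no injured array overlapped an uninjured one, with differences of 3.07 ± 0.32 (adjusted p = 5.93e-07), 2.93 ± 0.32 (adjusted p = 1.09e-06) and 2.43 ± 0.32 (adjusted p = 6.18e-06) in the same order. The summed log2 level of the 7 lymphocyte markers was -0.65 to -0.32 in Control, -1.19 to -1.12 in IRI, -1.74 to -0.39 in IPC+IRI, -1.75 to -1.12 in IRI+Hemin and -0.98 to -0.73 in Hemin, so that IPC+IRI overlapped Control. Their part in the values of Dusp2 was not tested.

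Dusp4, for MKP-2, a nuclear phosphatase of ERK and JNK, measured -0.58, -0.24, 0.02 and -0.39 in Control, 1.27, 1.46, 1.37 and 1.02 in IRI, 1.32, 1.02, 1.07 and 1.20 in IPC+IRI, 0.73, 0.84, 0.89 and 0.76 in IRI+Hemin, and -0.16, -0.30, -0.22 and -0.21 in Hemin. It was higher than Control by 1.58 ± 0.12 (adjusted p = 2.24e-08) in IRI, 1.45 ± 0.12 (adjusted p = 7.23e-08) in IPC+IRI and 1.10 ± 0.12 (adjusted p = 1.11e-06) in IRI+Hemin, with no overlap. Dusp14, or MKP6, a small phosphatase without the docking domain, measured -0.27, -0.12, 0.01 and 0.20 in Control, 1.39, 2.42, 2.22 and 1.98 in IRI, 1.74, 2.04, 1.91 and 1.86 in IPC+IRI, 1.35, 1.13, 1.08 and 1.33 in IRI+Hemin, and 0.35, 0.04, 0.11 and 0.25 in Hemin. It was higher by 2.05 ± 0.17 (adjusted p = 4.97e-08), 1.93 ± 0.17 (adjusted p = 1.18e-07) and 1.27 ± 0.17 (adjusted p = 7.71e-06) in the same order, and its lowest injured array, at 1.08, was above its highest uninjured one, at 0.35. Dusp10, for MKP-5, which acts on p38 and JNK, measured -5.89, -2.26, -4.51 and -5.73 in Control, -2.47, -1.93, -2.28 and -2.08 in IRI, -1.05, -1.70, -1.11 and -1.82 in IPC+IRI, -2.62, -2.78, -3.21 and -2.34 in IRI+Hemin, and -4.48, -5.32, -4.35 and -4.08 in Hemin. It was above background on 2 Control arrays and 3 Hemin arrays, and Control replicate 2 overlapped IRI and IRI+Hemin. Since its Control level was in part not well above background, no difference from it is given.

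**Figure D3:**
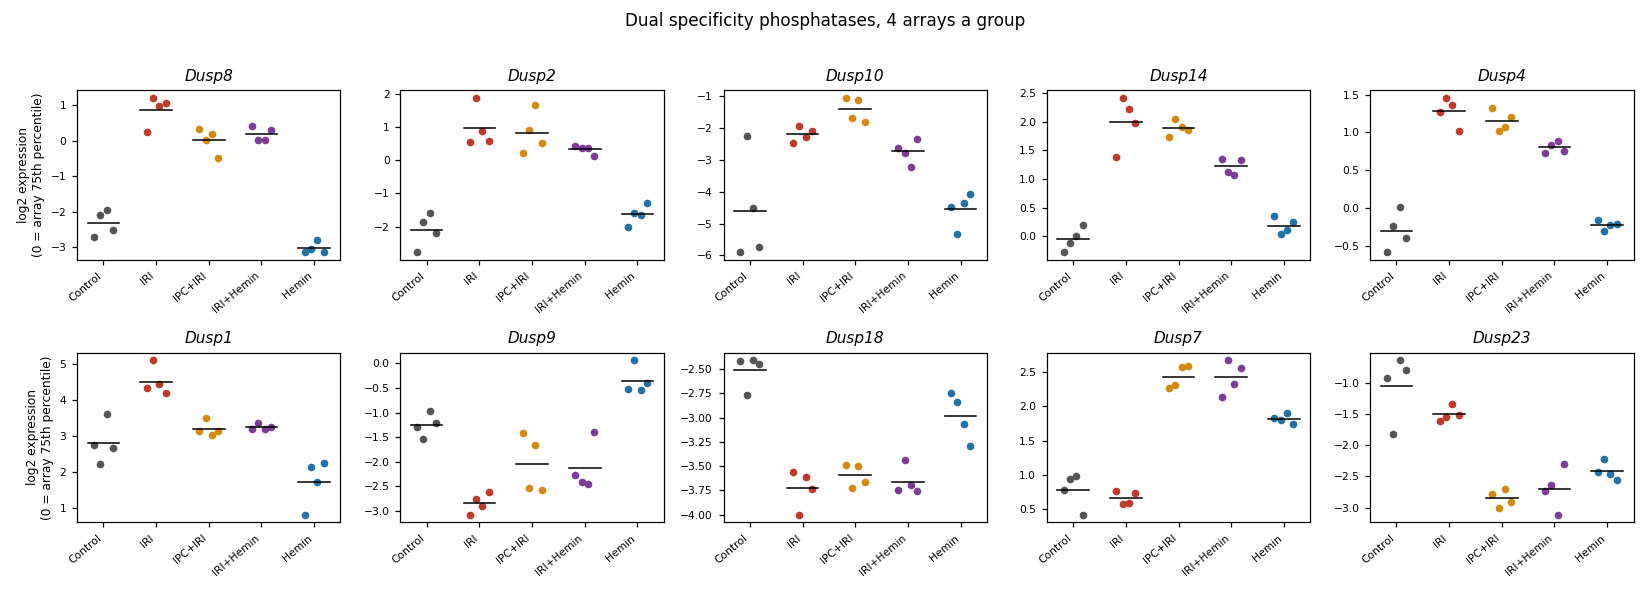
Log2 expression of 10 dual specificity phosphatase genes on each of the 20 arrays, in 5 groups of 4, with 0 at the array's 75th percentile. Points are arrays and black bars group means, and each panel has its own axis. Dusp8, Dusp2, Dusp14 and Dusp4 separate injured from uninjured groups, whereas Dusp7 and Dusp23 separate Control and IRI from the other 3 groups.

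Dusp1, for MKP-1, the immediate-early phosphatase of p38 and JNK, had another pattern. It measured 2.76, 2.22, 3.60 and 2.68 in Control, 4.32, 5.10, 4.44 and 4.18 in IRI, 3.15, 3.49, 3.03 and 3.15 in IPC+IRI, 3.19, 3.36, 3.18 and 3.26 in IRI+Hemin, and 0.82, 2.13, 1.73 and 2.24 in Hemin. The IRI arrays, at 4.18 or more, were above all others, while IPC+IRI and IRI+Hemin overlapped Control and Hemin had the lowest mean. The difference from Control was 1.69 ± 0.29 (adjusted p = 0.000114) in IRI, 0.39 ± 0.29 (adjusted p = 0.269) in IPC+IRI and 0.43 ± 0.29 (adjusted p = 0.212) in IRI+Hemin. Dusp3, for VHR, an atypical phosphatase of ERK and JNK, measured -1.29, -1.36, -1.43 and -1.81 in Control, -1.37, -0.38, -0.56 and -1.13 in IRI, -0.08, -0.75, -0.12 and 0.06 in IPC+IRI, -0.94, -0.88, -1.06 and -1.00 in IRI+Hemin, and -0.66, -1.05, -1.37 and -1.47 in Hemin. Its difference from Control was 0.62 ± 0.22 (adjusted p = 0.0278) in IRI, where arrays overlapped, and 1.25 ± 0.22 (adjusted p = 0.000147) in IPC+IRI, where they did not. Without Control replicate 4, IRI replicate 2 or IRI replicate 3, the IRI difference was 0.50, 0.45 or 0.51 and not called, nor was it called with normexp, at 0.45, or in a fit of only the groups compared, at 0.62. Dusp6, the cytoplasmic ERK phosphatase, rose by 0.60 in IRI vs Control, and Dusp16 by 0.57.

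Other phosphatases fell after IRI. Dusp9, for MKP-4, a cytoplasmic phosphatase found in kidney, measured -1.29, -1.54, -0.97 and -1.21 in Control, -3.07, -2.75, -2.90 and -2.62 in IRI, -1.41, -2.54, -1.66 and -2.57 in IPC+IRI, -2.26, -2.41, -2.45 and -1.40 in IRI+Hemin, and -0.52, 0.06, -0.55 and -0.40 in Hemin. The IRI arrays were the lowest and did not overlap any other group, with a difference from Control of -1.58 ± 0.26 (adjusted p = 8.28e-05). Dusp18, an atypical phosphatase that can enter mitochondria, measured -2.42, -2.77, -2.41 and -2.45 in Control, -3.56, -4.00, -3.61 and -3.74 in IRI, -3.49, -3.73, -3.50 and -3.66 in IPC+IRI, -3.75, -3.44, -3.70 and -3.76 in IRI+Hemin, and -2.75, -2.84, -3.07 and -3.29 in Hemin. It was lower than Control, without overlap, at -1.21 ± 0.13 (adjusted p = 1.3e-06) in IRI, -1.08 ± 0.13 (adjusted p = 4.42e-06) in IPC+IRI and -1.15 ± 0.13 (adjusted p = 2.06e-06) in IRI+Hemin. With normexp the IPC+IRI value was -0.50 and not called. Dusp26, a phosphatase best known from neural and endocrine tissue, measured -1.12, -1.90, -2.09 and -1.74 in Control, -2.68, -2.63, -2.88 and -3.69 in IRI, -2.51, -2.77, -2.67 and -2.43 in IPC+IRI, -2.47, -3.40, -2.44 and -2.02 in IRI+Hemin, and -1.15, -1.17, -1.39 and -0.73 in Hemin. It stood at -1.26 ± 0.27 (adjusted p = 0.000977) in IRI vs Control.

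Dusp15, an atypical phosphatase, measured -2.89, -3.21, -3.29 and -3.16 in Control, -4.85, -4.56, -5.02 and -4.80 in IRI, -3.08, -4.22, -3.83 and -4.20 in IPC+IRI, -4.52, -4.89, -4.73 and -3.26 in IRI+Hemin, and -3.15, -3.09, -3.54 and -3.14 in Hemin. Its difference was -1.67 ± 0.29 (adjusted p = 0.000122) in IRI and -0.69 ± 0.29 (adjusted p = 0.0486) in IPC+IRI, and in the latter its 3 probes ranged from -2.85 to 0.89 and the call was lost in 14 of the alternative settings. Dusp19, which binds the JNK pathway, measured -2.72, -1.68, -2.58 and -2.43 in Control, -3.70, -3.15, -3.38 and -3.65 in IRI, -1.79, -2.17, -2.08 and -2.35 in IPC+IRI, -2.46, -3.07, -2.73 and -2.27 in IRI+Hemin, and -1.82, -1.87, -2.06 and -1.85 in Hemin. It was called lower in IRI alone among the injured groups, at -1.12 ± 0.21 (adjusted p = 0.000241) against 0.25 ± 0.21 (adjusted p = 0.311) in IPC+IRI and -0.28 ± 0.21 (adjusted p = 0.258) in IRI+Hemin. With normexp the IRI vs Control values of Dusp9, Dusp15, Dusp18, Dusp19 and Dusp26 were -0.44, -0.06, -0.11, -0.09 and -0.40, and none was called.

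Both treated injury groups were also set against Control, across scan days. These comparisons share the Control arrays with IRI vs Control, so the values stand side by side. In IPC+IRI vs Control, 16 kinases (37.2%) rose and 13 (30.2%) fell, against 23.2% and 32.8% of all genes, and 8 phosphatases (40%) rose and 5 (25%) fell. At 2-fold or more, 6 kinases and 7 phosphatases rose, where 7.96% of all genes did, and 3 kinases and 2 phosphatases fell, where 14.1% did. Without IPC+IRI replicate 2, and likewise without IPC+IRI replicate 4, 3 phosphatases were lower. In IRI+Hemin vs Control, 16 kinases (37.2%) rose and 6 (14%) fell, against 24.4% and 33.2% of all genes, and 7 phosphatases (35%) rose and 6 (30%) fell. With a 2-fold cutoff, 7 kinases and 6 phosphatases rose, against 8.35% of all genes, and 1 kinase and 3 phosphatases fell, against 14.5%. Without Control replicate 2, 12 kinases were lower there. Without normalization between arrays, the share of all called genes that were higher was 75.1% in IPC+IRI vs Control, against 41.5%, and 77.3% in IRI+Hemin vs Control, against 42.4%.

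IPC+IRI vs IRI asks how preconditioning altered the response to the same ischemia, across scan days. Of the kinases, 8 (18.6%) were higher and 15 (34.9%) lower, against 26.3% and 17.8% of all genes, and of the phosphatases 6 (30%) were higher and 4 (20%) lower. At 2-fold or more, 0 kinases and 2 phosphatases were higher, against 7.18% of all genes, and 5 kinases and 2 phosphatases were lower, against 4.4%. The median difference was -0.13 over kinases, 0.23 over phosphatases and 0.09 over all genes. Without normalization between arrays, 3 kinases and 2 phosphatases were lower, and 90.7% of all genes called were higher, against 59.6%. Without IPC+IRI replicate 4, 5 kinases were higher. Dusp1, whose arrays are given above, was lower, at -1.31 ± 0.29 (adjusted p = 0.00154), and so was Dusp8, at -0.86 ± 0.21 (adjusted p = 0.00354). The MAP2K tier had 4 of 7 members lower and 3 not called. They were Map2k6, at -1.37 ± 0.21 (adjusted p = 7.47e-05), Map2k7, at -1.03 ± 0.14 (adjusted p = 3.57e-05), Map2k4, at -0.72, and Map2k1, at -0.43. Probes of Map2k6 disagreed here, from -2.41 to 0.89. Hemin kidneys were uninjured and shared the scan day of IPC+IRI. Their means were -1.10 for Map2k6, -2.02 for Map2k7, 0.99 for Map2k4 and 1.30 for Map2k1. In IPC+IRI these means were -1.20, -2.10, 0.83 and 1.26, in the same order. The part of the scan day was not tested.

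Of the ERK family, 4 of 6 members (66.7%) were lower in IPC+IRI than in IRI and 1 (16.7%) was higher, against 17.8% and 26.3% of all genes. Mapk6, at -1.13 ± 0.27 (adjusted p = 0.00272), and Mapk3, at -0.54 ± 0.13 (adjusted p = 0.00294), were among the lower, with no overlap of arrays. Probes of Mapk6 ranged from -1.85 to 0.28, and with the mean of log2 over probes it was -0.51 and not called. Mapk4, which encodes the atypical ERK4, measured -0.31, -1.22, 0.11 and -0.09 in Control, 0.02, 0.24, 0.48 and -0.27 in IRI, -1.18, -1.69, -1.65 and -1.37 in IPC+IRI, -1.04, -1.00, -1.15 and -1.89 in IRI+Hemin, and -1.83, -1.82, -1.85 and -1.74 in Hemin. It was lower, at -1.59 ± 0.25 (adjusted p = 8.37e-05), as was Mapk15, at -1.32 ± 0.18 (adjusted p = 2.63e-05). Map3k3, Map3k7 and Map3k11 were lower as well, at -0.78, -0.72 and -0.78. Mapk8 was higher, at 0.71 ± 0.15 (adjusted p = 0.000873), but 0.26 and not called with normexp and -0.10 when the log2 values of its probes were averaged, and its probes ranged from -1.03 to 1.00. Without normalization between arrays, Dusp8 was -0.55, Map2k7 -0.72, Mapk3 -0.22 and Mapk6 -0.81, and none was called. In uninjured Hemin, scanned on the day of IPC+IRI, Mapk4 had a mean of -1.81, against -1.47 in IPC+IRI. The means of Mapk3, Mapk6 and Mapk15 were 1.51, -2.00 and -4.00 in Hemin. In IPC+IRI they were 1.21, -0.40 and -4.81.

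Among the phosphatases higher in IPC+IRI than in IRI was Dusp19, by 1.37 ± 0.21 (adjusted p = 6.98e-05), with no overlap of arrays but a value of 0.11, not called, with normexp. Dusp7, a cytoplasmic ERK phosphatase, measured 0.78, 0.94, 0.98 and 0.42 in Control, 0.76, 0.58, 0.59 and 0.74 in IRI, 2.26, 2.31, 2.57 and 2.58 in IPC+IRI, 2.13, 2.67, 2.33 and 2.56 in IRI+Hemin, and 1.83, 1.80, 1.90 and 1.74 in Hemin. Its difference was 1.76 ± 0.13 (adjusted p = 1.96e-07). Dusp23, a small atypical phosphatase, measured -0.92, -1.82, -0.64 and -0.80 in Control, -1.61, -1.55, -1.34 and -1.51 in IRI, -2.78, -3.00, -2.70 and -2.91 in IPC+IRI, -2.73, -2.64, -3.11 and -2.30 in IRI+Hemin, and -2.43, -2.22, -2.46 and -2.56 in Hemin. It was lower in IPC+IRI than in IRI, at -1.34 ± 0.20 (adjusted p = 6.96e-05). In Dusp7 and Dusp23, as in Mapk7, for ERK5, and Mapk15, the 8 arrays of the first scan day did not overlap the 12 arrays of the later days. Across scan days, day and group cannot be told apart for any gene. Such a separation, with the first day above, held for 2.46% of 19129 genes, and with it below for 1.67%. Among the members it was 3.17% in each direction.

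IRI+Hemin vs IRI asks the same of hemin, again across scan days. Of the kinases, 6 (14%) were higher and 15 (34.9%) lower, against 26.3% and 18.1% of all genes, and of the phosphatases 4 (20%) were higher and 7 (35%) lower. With a 2-fold cutoff, 1 kinase and 1 phosphatase were higher, against 7.45% of all genes, and 5 kinases and 2 phosphatases were lower, against 5.04%. Without normalization between arrays, 5 kinases and 2 phosphatases were lower, 7 phosphatases were higher, and 91.3% of all genes called were higher, against 59.2%. Without IRI+Hemin replicate 4, 2 phosphatases were higher. Dusp1, at -1.26 ± 0.29 (adjusted p = 0.00199), Dusp14, at -0.78 ± 0.17 (adjusted p = 0.00128), and Dusp4, at -0.48 ± 0.12 (adjusted p = 0.00413), were lower, with no overlap of arrays. Dusp8, which overlapped, was lower, at -0.69 ± 0.21 (adjusted p = 0.0147), but was not called without IRI replicate 2, at -0.58, without normalization, at -0.32, or with normexp, at -0.34. Dusp4 was not called with normexp, at -0.17, or with the mean of log2 over probes, at -0.26. Dusp7 was higher by 1.75 ± 0.13 (adjusted p = 2.77e-07).

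Among the kinases, Map3k8, at -1.66 ± 0.33 (adjusted p = 0.000627), Mapk6, at -1.58 ± 0.27 (adjusted p = 0.000198), and Map2k3, at -0.75 ± 0.14 (adjusted p = 0.000477), were lower in IRI+Hemin than in IRI. Arrays did not overlap in any of these. Probes of Mapk6 ranged from -2.23 to 0.08. Map3k14, at -0.63 ± 0.17 (adjusted p = 0.00539), and Map2k6, at -1.22 ± 0.21 (adjusted p = 0.000188), were lower too. Map3k12 was higher by 1.14 ± 0.18 (adjusted p = 8.77e-05), but -0.18 with normexp. Probes of Map2k6 ranged from -2.87 to 0.48, and its mean was -1.06 in IRI+Hemin and -1.10 in uninjured Hemin. Without normalization between arrays, Map2k3 was -0.39, Map3k14 -0.27, Dusp14 -0.42 and Dusp4 -0.11, and none was called.

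Hemin vs Control sets the drug without injury against no treatment, across scan days, so that day and drug cannot be told apart. Of the kinases, 10 (23.3%) were higher and 10 (23.3%) lower, against 18.5% and 17.6% of all genes, and of the phosphatases 3 (15%) were higher and 4 (20%) lower. At 2-fold or more, where 2.19% of all genes rose and 5.99% fell, no kinase rose and 2 fell, Mapk15, at -1.46 ± 0.18 (adjusted p = 4.5e-05), and Mapk4, at -1.43 ± 0.25 (adjusted p = 0.000423). Dusp7 was higher by 1.04 ± 0.13 (adjusted p = 6.99e-05) and Dusp9 by 0.90 ± 0.26 (adjusted p = 0.0133), and Dusp23 was lower, at -1.37 ± 0.20 (adjusted p = 0.000154). With normexp Dusp9 was 0.55 and not called. Dusp1 was lower, at -1.09 ± 0.29 (adjusted p = 0.00775), though Control replicate 2 lay just under Hemin replicate 4. Without normalization between arrays, 17 kinases were higher and 2 lower, 13 phosphatases were higher and 1 lower, and Dusp1, at -0.52, was not called. In that setting 94.7% of all genes called were higher, against 51.3%, and the median of all genes was 0.62, against 0.06. With the percentile taken over probes above background on all arrays, the share was 35.1%. The lower kinases numbered 14 without Control replicate 2, 5 without Control replicate 3 and 6 without Hemin replicate 4, and the higher kinases 6 without Control replicate 4 or any of Hemin replicates 1, 3 and 4.

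The interaction sets the effect of injury in hemin-treated kidneys against that in untreated ones. IRI and Control shared a scan day, whereas IRI+Hemin and Hemin did not, so that day and treatment cannot be told apart. Of the members reported it was called for Map2k3, Dusp14 and Dusp7, where 5.84% of all genes were higher and 1.96% lower. With normexp, and without normalization between arrays, limma called 0 of them, against 12 and 9 at an unadjusted p below 0.05. The values in these settings were -1.07 and -1.14 for Map2k3, -0.69 and -1.22 for Dusp14, and 0.78 and 0.51 for Dusp7. Map2k3, at -0.94 ± 0.20 (adjusted p = 0.00887), and Dusp14, at -1.01 ± 0.24 (adjusted p = 0.0145), had negative terms, a smaller difference with injury after hemin. Dusp7, at 0.72 ± 0.19 (adjusted p = 0.0271), had a positive term. It was not called without Control replicate 3, IRI replicate 2, IRI replicate 3, IRI+Hemin replicate 2 or Hemin replicate 4, at 0.63 to 0.69. The term for Dusp1 was -0.17 ± 0.41 (adjusted p = 0.855).

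Injured and uninjured kidneys shared a scan day in 2 comparisons that share no arrays, IRI vs Control on the first day and IPC+IRI vs Hemin on the third. The second was added after the values had been seen, and sets groups that differ in preconditioning and hemin as well as in injury. In IPC+IRI vs Hemin, 12 kinases and 9 phosphatases were higher, against 13.2% of all genes, and 6 kinases and 3 phosphatases were lower, against 22.8%. Of the 26 members higher in IRI vs Control, 20 (76.9%) were higher in IPC+IRI vs Hemin, and these were 95.2% of its 21. Of the 11 members lower in the first, 7 (63.6%) were lower in the second, or 77.8% of its 9, and none was called in opposite directions. Over the 17282 genes tested in both, 59% of those higher in the first were higher in the second, or 77.2% of the second, and 51% of those lower in the first were lower in the second, or 73.2%. Map3k6 differed by 3.97 on the third day, Dusp10 by 3.14, Dusp8 by 3.04, Map3k8 by 2.56 and Dusp2 by 2.46. Dusp1, whose injured groups differed in their distance from Control, was higher than in Hemin by 1.47 ± 0.29 (adjusted p = 0.000816) in IPC+IRI and by 1.52 ± 0.29 (adjusted p = 0.000474) in IRI+Hemin. The value of IRI+Hemin crosses scan days. Of the 26, Dusp6, Map2k6, Map2k7, Map4k3, Map4k4 and Map4k5 were not called higher on the third day, and Dusp7 was the 1 member called higher on that day alone.

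**Figure D4:**
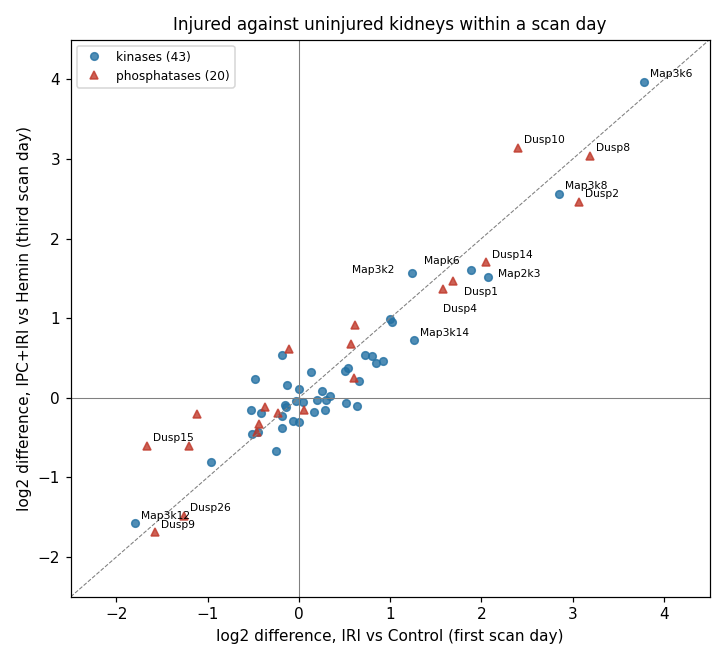
Log2 difference of IRI vs Control on the first scan day (horizontal axis) against IPC+IRI vs Hemin on the third (vertical axis), which share no arrays, for 43 kinases (circles) and 20 phosphatases (triangles). The dashed line marks equal differences. Map3k6, at 3.78 and 3.97, lies farthest out, and Map3k12, at -1.80 and -1.58, and Dusp9, at -1.58 and -1.69, are low on both axes.

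Other genes of the pathway that do not bear these names were counted from lists of regulators, scaffolds, other phosphatases and targets. Of 72 tested, 32 (44.4%) rose and 11 (15.3%) fell in IRI vs Control, against 17.1% and 33.9% of all genes. In IPC+IRI vs IRI, 15 (20.8%) were higher and 24 (33.3%) lower, against 26.3% and 17.8%. Fosl1, Ptpn7, Rasal1 and Rps6ka5 were not well above background on enough arrays of IRI or of Control, and without them 31 of 68 (45.6%) rose and 11 (16.2%) fell in IRI vs Control. The group of transcriptional targets without Fosl1 had 9 of 13 (69.2%) higher and 1 (7.69%) lower, with a median difference of 1.70. Among those higher were Atf3, at 5.57, Myc, at 4.05, Fos, at 4.01, and Egr1, at 2.83, all of them transcription factors of the immediate response. Gadd45b, at 2.76, and Gadd45a, at 2.58, which bind the MAP3K MEKK4, rose in the list of scaffolds and activators, where 3 of 16 (18.8%) rose and 5 (31.2%) fell. Myc was lower in IPC+IRI than in IRI, at -2.30. Of 6 feedback inhibitors outside the DUSP family, without Rasal1, 5 (83.3%) rose in IRI vs Control and 1 was not called.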

How the data were processed

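Kidney RNA was measured on 20 one-color arrays. The authors deposited intensity values of their scanner, from Agilent Feature Extraction 9.5.3.1 per the file headers, with background subtracted on each array and no step between arrays. The log2 matrix the authors deposited holds the log2 of the same signal, with 100% of its values within 0.001 of it and 18.1% blank, and was used as an alternative.

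Spots marked as uneven or as outliers among copies were removed (53 to 165 an array). Each array was scaled to its 75th percentile, all probes sharing a gene name were averaged, and the log2 was taken. Genes with over 1 missing value in a comparison, or well above background on fewer than 3 of 4 arrays in both groups, were left out of it. With limma 3.58.1 in R 4.3.3, one linear model with a mean for each group was fitted to all 20 arrays (15 residual degrees of freedom), p-values were adjusted by Benjamini-Hochberg over all genes, and the code was tested on simulated data. Tables were read with the data.table package (1.17.8) and plots drawn with matplotlib 3.10.9 in Python 3.11.15. The 4 arrays a group limit the precision.

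Per-array values are given for members called at 2-fold or more in the interaction or any of the 6 comparisons of the heatmap and for Mapk3, Mapk8, Mapk9, Mapk14 and Dusp1, 33 members in all. In addition, 1 member is counted in the totals of the group comparisons, but not in those of the interaction, and is not reported here. The members, lists and comparisons were chosen with earlier results of these data known. Of the members, 29 have 1 probe and the others up to 5. In 12 of the 32 with at least 2 measured probes, the probes took opposite signs at least 1 apart in some comparison. All 66 symbols were found among the RefSeq genes.

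The alternatives were normexp background correction (offset 50), no normalization, quantile normalization, a percentile over the probes that every array detected, the mean of log2 over probes or the brightest probe, the deposited matrix, no filter and a stricter filter on dim genes, only the groups compared, the replicate number as a block, a 2-fold cutoff and leaving out each array.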

Additional observations from a re-analysis of the deposited data

Results flagged for a closer look

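In 11 of 165 combinations of a member and a group, 1 array stood apart from the other 3 by more than 0.829 of the group's range. Chance gives this in about 1 of 20 groups. Values are log2 expression. Among the kinases, Mapk6 measured -1.90 in Control replicate 2, against -0.99 to -0.83 on the others. Map3k12 measured -4.06 in IPC+IRI replicate 2, against -3.48 to -3.39, and Mapk3 1.33 in IPC+IRI replicate 3, against 1.16 to 1.18. In IRI+Hemin replicate 4, Map2k6 measured -0.56, against -1.25 to -1.18, Map3k8 -3.55, against -2.46 to -2.41, and Mapk4 -1.89, against -1.15 to -1.00. Mapkapk2 measured 2.57 in IRI replicate 4, against 1.82 to 1.94, and 2.49 in IRI+Hemin replicate 3, against 2.59 to 2.60. Among the phosphatases, Dusp18 measured -2.77 in Control replicate 2, against -2.45 to -2.41, and -3.44 in IRI+Hemin replicate 2, against -3.76 to -3.70. Dusp15 measured -3.54 in Hemin replicate 3, against -3.15 to -3.09.

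The interaction term of limma, which sets the change with injury after hemin against that without, was called in 3 of the members reported. The change with hemin minus the change without was -0.94 for Map2k3, -1.01 for Dusp14 and 0.72 for Dusp7. Of all genes tested, 5.84% were called higher and 1.96% lower. With normexp, and without normalization between arrays, 0 members reported were called. IRI+Hemin and Hemin were scanned on different days, so that day and treatment cannot be told apart.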

How the results depend on the processing

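Of 136 calls of the 33 members with per-array values, 65 held under each alternative other than the 2-fold cutoff that gave them a value and 112 whichever single array was left out. The deposited matrix gave a value for 129 of them and the stricter filter on dim genes for 126. No call with a value there reversed under quantile normalization, the percentile over probes above background, the deposited matrix, either filter on dim genes, only the groups compared, the replicate block or any array left out. Signs turned with normexp in Dusp15, IPC+IRI vs IRI (-0.28), Dusp19, IRI+Hemin vs IRI (-0.15), Dusp9, IPC+IRI vs IRI (-0.01), Dusp9, IRI+Hemin vs IRI (-0.06), Map3k12, IPC+IRI vs IRI (-0.25), and Map3k12, IRI+Hemin vs IRI (-0.18). They turned without normalization in Dusp18, Hemin vs Control (0.09), Map2k7, Hemin vs Control (0.13), Map3k5, Hemin vs Control (0.08), and Mapk9, IRI+Hemin vs Control (0.17). They turned with the brightest probe in Dusp15, IPC+IRI vs Control (0.89), and with the mean of log2 over probes in Mapk8, IPC+IRI vs IRI (-0.10), and Mapk8, IRI+Hemin vs Control (-0.11). Within the third scan day, an alternative chosen after seeing the data that sets Hemin in place of Control, 21 of 29 calls held and 7 were lost, at -0.60 for Dusp15, -0.43 for Dusp23, -0.10 for Map2k6, -0.07 for Map2k7, 0.46 for Map4k4, -0.30 for Mapk3 and 0.32 for Mapk8, while Mapk4, IPC+IRI vs Control, was 0.34, and 6 kinases and 3 phosphatases were lower in that comparison. The causes were not tested.

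The counts of called members moved by more than 1.5 times as follows. With normexp, IRI vs Control had 0 kinases and 0 phosphatases lower, IPC+IRI vs Control 8 kinases and 2 phosphatases lower, IRI+Hemin vs Control 3 phosphatases lower, IPC+IRI vs IRI 1 kinase and 2 phosphatases higher, and IRI+Hemin vs IRI 3 kinases and 2 phosphatases higher. Hemin vs Control had 4 kinases higher and 6 lower and 1 phosphatase higher and 2 lower, and the interaction 0 members. Without normalization, IRI vs Control had 2 kinases lower, IPC+IRI vs Control 2 kinases and 2 phosphatases lower, IRI+Hemin vs Control 1 kinase and 3 phosphatases lower, and IPC+IRI vs IRI 3 kinases and 2 phosphatases lower. IRI+Hemin vs IRI had 5 kinases lower and 7 phosphatases higher and 2 lower, Hemin vs Control 17 kinases higher and 2 lower and 13 phosphatases higher and 1 lower, and the interaction 0 members. With the percentile over probes above background, IRI vs Control had 8 phosphatases lower, IRI+Hemin vs Control 12 kinases lower and Hemin vs Control 6 kinases higher. With the mean of log2, IPC+IRI vs IRI had 5 kinases higher and Hemin vs Control 4. With the deposited matrix, IPC+IRI vs Control had 3 phosphatases lower and Hemin vs Control 6 kinases higher. At 2-fold or more, IRI vs Control had 8 kinases higher and 1 lower, IPC+IRI vs Control 6 kinases higher and 3 lower and 2 phosphatases lower, and IRI+Hemin vs Control 7 kinases higher and 1 lower and 3 phosphatases lower. IPC+IRI vs IRI then had 0 kinases higher and 5 lower and 2 phosphatases higher and 2 lower, IRI+Hemin vs IRI 1 kinase higher and 5 lower and 1 phosphatase higher and 2 lower, Hemin vs Control 0 kinases higher and 2 lower and 1 phosphatase higher and 2 lower, and the interaction 1 member. The median of phosphatases minus that of kinases moved by over 1 SD between arrays when no filter on dim genes was set, to 0.01 in IPC+IRI vs Control and -0.35 in IRI+Hemin vs Control.

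Leaving out each array gave 3 to 5 phosphatases lower in IPC+IRI vs Control, 4 to 12 kinases lower in IRI+Hemin vs Control, 5 to 8 kinases higher in IPC+IRI vs IRI, 2 to 5 phosphatases higher in IRI+Hemin vs IRI, 6 to 9 kinases higher and 5 to 14 lower in Hemin vs Control, and 2 to 5 members in the interaction. Same-numbered arrays did not deviate together (r of -0.378 to 0.206, median -0.0295 over 40 pairs), and 5 of 20 arrays correlated best with their own number, so the numbers do not pair the arrays. With the replicate block, 132 of the 136 calls held, the interaction had 3 members, and Dusp15, IPC+IRI vs Control (-0.69), Dusp9, IRI+Hemin vs IRI (0.71), Map3k5, IRI+Hemin vs IRI (-0.40), and Mapk8, IRI+Hemin vs Control (0.35), lost their call. It changed no other call of these members. The slide as a random block was not run, since each slide holds 1 group and it could not be fitted. Signal over background limits the dim members.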
